A study of Homo sapiens with 6 samples.

Results

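The genes described here are the zinc transporters of the SLC30A and SLC39A families, the metallothioneins MT1A to MT1X and MT2A, and the zinc sensor MTF1. They were taken from the 19672 genes of the count table by symbol, which gave 34 genes: 10 SLC30A, 14 SLC39A, 9 metallothioneins and MTF1. The symbol rule used no measured values, but the genes were chosen with earlier results of these data known. The RNA came from SW620, an established human colorectal cancer cell line, stably transduced with lentiviral short hairpin RNA (shRNA) vectors and kept under 1 µg/mL puromycin. The libraries formed 3 groups of 2: the knockdown line C3 and the knockdown line C6, both carrying an shRNA against DKC1, and a line carrying a non-targeting scrambled shRNA, called scramble. DKC1 encodes dyskerin, a pseudouridine synthase and telomerase component. Puromycin selection and the lentiviral backbone were common to all groups. The sources used here do not give which shRNA of the design text each line carries, or whether a line is a single clone.

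Zinc is held at a very low free concentration in the cytosol. SLC30A proteins (ZnT) move it out of the cytosol, across the plasma membrane or into organelles, and SLC39A proteins (ZIP) move it in. Metallothioneins are small cysteine-rich proteins that bind zinc, copper and cadmium. MTF1 is the transcription factor that senses a rise in zinc and switches on metallothionein genes and SLC30A1 through metal response elements. In the intestine SLC39A4 takes up dietary zinc at the apical membrane, and its loss in humans causes the zinc deficiency acrodermatitis enteropathica.

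Total counts ran from 26077966 to 31021000 per library, so that 3 counts correspond to 0.0967 to 0.115 CPM, a floor for counting error only. Levels below are CPM, counts scaled to the TMM-adjusted size of each library. DKC1 stood at 144 and 149 CPM in C3, 70.3 and 67.1 CPM in C6, and 319.7 and 315 CPM in scramble. The C3 library whose genotype tag reads control is C3 replicate 1, and it lay beside the other C3 library. Of 14 colorectal epithelial markers 11 reached 1 CPM in both libraries of each group, CDX1 was listed at 0 in all 6 libraries, and LGALS4 was at 0 in both C3 libraries. Their summed level was 6983 to 7189 CPM in C3, 9202 to 9303 CPM in C6 and 8580 to 9232 CPM in scramble. Of the 13 tested, 1 was called higher and 7 lower in C3 (edgeR, median log2 −0.30), beside 12.4% and 11.9% of all genes. In C6 4 were called higher and 4 lower (median −0.01), beside 23.8% and 22.8%. In C6 against C3 9 were called higher and 1 lower (median 0.89), beside 25.1% and 24.1%. The part of these epithelial markers in the results below was not tested. The leukocyte markers PTPRC, CD3E and MS4A1 and the fibroblast markers COL1A2, COL3A1, DCN and FAP were at 0 in every library. The whole leukocyte list summed to 14.4 to 14.9 CPM in C3, 47.0 to 54.7 CPM in C6 and 20.03 to 20.6 CPM in scramble, and both of its tested genes were called higher in C6 (edgeR, median log2 1.47). The fibroblast list summed to 30.3 to 34.9 CPM in C3, 15.0 to 16.5 CPM in C6 and 23.1 to 24.1 CPM in scramble, and its 3 tested genes were all called lower in C6 (median log2 −0.73). The endothelial list summed to 3.36 to 3.45 CPM in C3, 5.68 to 6.15 CPM in C6 and 5.51 to 6.43 CPM in scramble. Of its 3 tested genes 1 was called higher and 1 lower in C6. The part of these markers in the C6 results was not tested. The titles name biological replicates without saying whether these were separate cultures, so p-values measure the spread between libraries of 1 line and not between independently made lines.

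Of the 34 genes, 26 passed the low-count filter and were tested, and 8 had fewer than 10 counts in every library. Among those 8, MT1B, MT1H, SLC30A8, SLC30A10, SLC39A2 and SLC39A12 had 0 counts in all 6 libraries. SLC30A2, a vesicular zinc exporter of secretory glands, had 0 and 6 counts in C3, 3 and 0 in C6, and 0 and 3 in scramble, and MT1M had 2 counts in C3 replicate 2 alone. SLC30A8 loads insulin granules of pancreatic beta cells with zinc, and SLC30A10 exports manganese. At this depth a count of 0 limits a gene to at most 0.115 CPM in the shallowest library.

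Calls were made with edgeR's quasi-likelihood test at a Benjamini-Hochberg adjusted p of 0.05 over all 13299 genes tested. In C3 against scramble 8 of the 26 genes were called, 3 higher and 5 lower, beside 24.3% of all genes (12.4% higher and 11.9% lower). In C6 against scramble 14 of 26 were called, 5 higher and 9 lower, beside 46.7% of all genes (23.8% higher and 22.8% lower). In the mean of both lines against scramble 7 of 26 were called, 3 higher and 4 lower, beside 32.9% of all genes (16.6% higher and 16.3% lower). In C6 against C3, the direct test of the difference between the lines, 16 of 26 were called, 7 higher and 9 lower, beside 49.2% of all genes (25.1% higher and 24.1% lower). The shares called, 30.8%, 53.8%, 26.9% and 61.5% in that order, lay near these backgrounds. The median log2 fold change of the 26 genes was −0.03 in C3, 0.02 in C6, 0.01 in the mean and 0.05 in C6 against C3, beside 0.0013, −0.01, −0.0045 and 0.0018 over all genes tested.

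With upper-quartile scaling 2 of these genes were higher and 7 lower in C3, and 1 was higher and 7 lower in the mean. Over all genes that scaling moved the share of higher calls in the mean to 37.2%, against 50.5% with TMM. The C3 count was 4 when any library of C3 or scramble was left out. The C6 count was 9 without scramble replicate 2, and the count in the mean was 4 without scramble replicate 1 and 3 without scramble replicate 2. The count between the lines was 10 without C3 replicate 1 and 9 without C3 replicate 2 or C6 replicate 2. Over all genes, the C3 count of 3230 was 1947 without C3 replicate 2 and 1946 without scramble replicate 2, and that of 4382 in the mean was 2444 without scramble replicate 2. With the 4 knockdown libraries taken as 1 group, where the difference between C3 and C6 counts as spread, 80 of all genes and 0 of the 26 were called by edgeR, 4 of the 26 at an unadjusted p under 0.05. Both lines are set against the same scramble libraries. SLC39A4, SLC39A5 and SLC39A11 passed the test in both lines and in 1 direction, 3 of 26 (11.5%) beside 10% of all genes, and with opposite signs SLC30A5 and SLC39A13, 2 of 26 (7.69%) beside 4.93%.

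**Figure D1:**
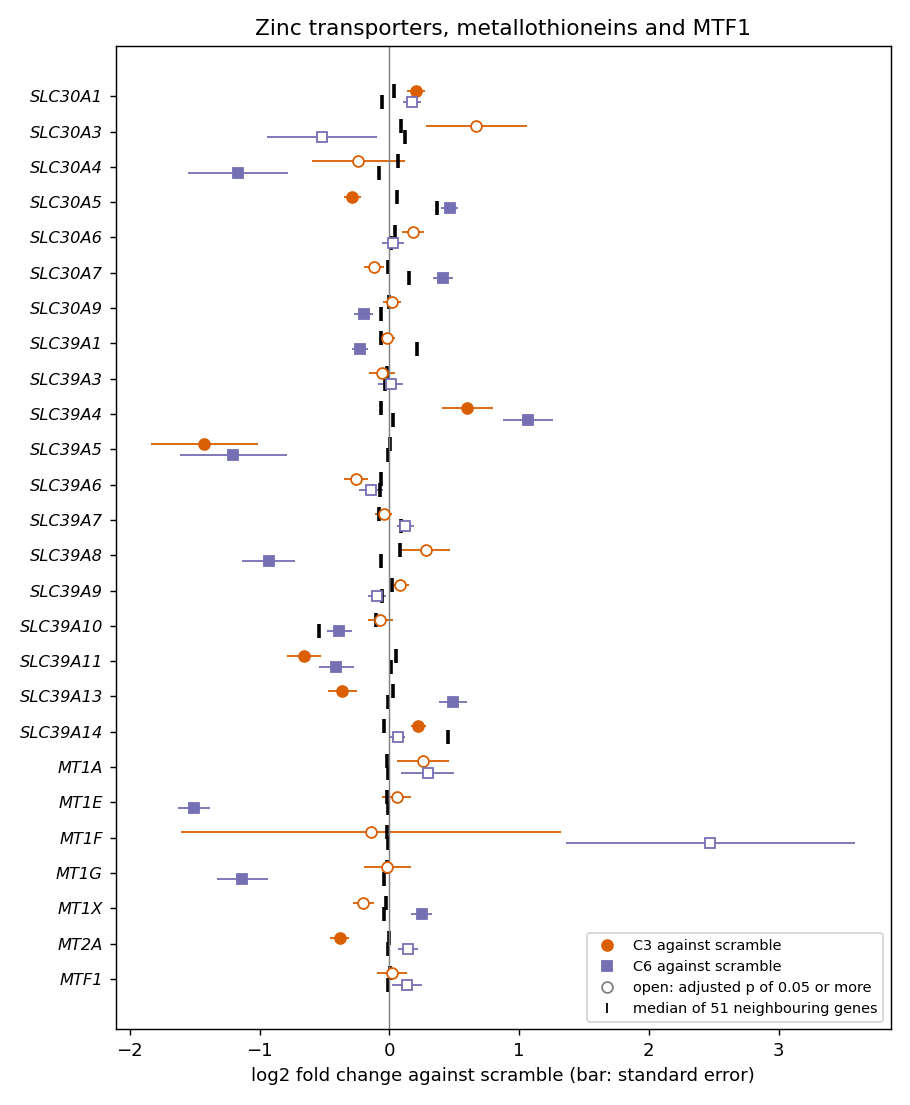
Log2 fold change against scramble (x axis, bars are standard errors) of the 26 tested genes in C3 (circles) and C6 (squares); filled symbols passed an adjusted p of 0.05 and black ticks give the median of 51 neighbouring genes. SLC39A4 lies right of 0 and SLC39A5 and SLC39A11 lie left of 0 in both lines, while MT1E and MT1G are shifted left in C6 and lie near 0 in C3.

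MTF1 (GRCh38 chromosome 1, 37809574 to 37859592) was measured at 30.5 and 26.3 CPM in C3, 27.8 and 33.8 CPM in C6, and 25.9 and 30.05 CPM in scramble. The 3 groups overlapped, and the log2 fold change was 0.02 ± 0.11 (SE) in C3 and 0.14 ± 0.12 in C6, neither of them called (edgeR adjusted p = 0.915 and 0.346).

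The metallothioneins listed lie within 75.6 kb of chromosome 16 (56608584 to 56684196). Per kilobase of exon MT2A had the highest level of all 34 genes, at 152 CPM per kb in C3, 218 CPM per kb in C6 and 197 CPM per kb in scramble. The next was SLC39A14, at 89.1, 79.8 and 76.3 CPM per kb in C3, C6 and scramble. Among metallothioneins MT1X followed with 39.7, 54.2 and 45.6 CPM per kb in the same order of groups. The exon lengths come from GENCODE 29.

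The sequences below are the 250 bases before the RefSeq start of MT2A and MT1X, the most abundant metallothioneins, of MT1H, their neighbour with 0 counts, and of SLC30A1, the exporter that MTF1 is known to switch on. Capitals mark matches to the core of the metal response element, searched as TGCACNC and TGCGCNC on both strands, where the other strand reads GNGTGCA and GNGCGCA. Each runs 5′ to 3′ on the gene's strand (GRCh38.p14).
MT2A, chr16:56608334-56608583, plus strand: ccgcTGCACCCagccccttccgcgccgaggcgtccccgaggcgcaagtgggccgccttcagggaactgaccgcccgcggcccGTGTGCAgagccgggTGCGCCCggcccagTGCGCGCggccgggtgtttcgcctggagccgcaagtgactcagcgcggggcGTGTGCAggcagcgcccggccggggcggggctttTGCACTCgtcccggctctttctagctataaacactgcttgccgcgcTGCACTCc
MT1X, chr16:56682220-56682469, plus strand: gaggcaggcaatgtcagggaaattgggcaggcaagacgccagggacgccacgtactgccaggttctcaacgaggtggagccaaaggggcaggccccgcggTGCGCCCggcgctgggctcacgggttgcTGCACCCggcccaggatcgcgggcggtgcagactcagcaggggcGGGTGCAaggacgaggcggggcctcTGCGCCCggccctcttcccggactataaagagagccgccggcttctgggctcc
MT1H, chr16:56669564-56669813, plus strand: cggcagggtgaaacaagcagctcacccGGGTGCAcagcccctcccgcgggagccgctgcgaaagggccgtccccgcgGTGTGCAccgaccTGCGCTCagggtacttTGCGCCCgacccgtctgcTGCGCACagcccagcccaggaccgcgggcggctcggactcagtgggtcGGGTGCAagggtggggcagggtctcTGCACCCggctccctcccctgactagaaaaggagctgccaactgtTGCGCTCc
SLC30A1, chr1:211579162-211579411, minus strand: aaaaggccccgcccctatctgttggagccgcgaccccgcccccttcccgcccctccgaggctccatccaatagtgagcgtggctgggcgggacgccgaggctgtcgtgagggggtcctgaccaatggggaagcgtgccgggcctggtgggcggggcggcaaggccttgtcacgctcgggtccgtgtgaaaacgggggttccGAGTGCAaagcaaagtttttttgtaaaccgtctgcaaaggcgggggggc
There are 7 matches in the MT2A window, 4 in MT1X, 8 in MT1H and 1 in SLC30A1, none overlapping another.

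Of 35116 such windows in the RefSeq table, 24.8% hold at least 1 match, 9.87% hold TGCACNC, 16.8% hold TGCGCNC on either strand, and 0.208% hold at least 4 that do not overlap. A window was matched for 26 of the 34 genes, 4 of them metallothioneins. None was matched for MT1A, MT1E, MT1F, MT1G, MT1M, SLC30A8, SLC39A4 or SLC39A14, so these were not searched. Among the transporters and MTF1, 10 of 22 had a match in at least 1 of their windows. Some of these genes have more than 1 window, so this count per gene cannot be set against the 24.8% per window. The matches describe these letters only: MT1H, with 8 of them, was at 0 counts in every library.

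MT1E and MT1G, metallothioneins with levels below those of MT2A and MT1X, were lower in C6. MT1E (chromosome 16, 56625781 to 56627112) had 18.3 and 19.7 CPM in C3, 6.30 and 6.54 CPM in C6, and 19.5 and 17.0 CPM in scramble. Both C6 libraries lay below all 4 others, and C3 overlapped scramble. MT1E fell by 1.51 on the log2 scale in C6 (SE 0.12, edgeR adjusted p = 1.45e-07), to 35.2% of scramble. Its log2 fold change in C3 was 0.06 ± 0.11, and C6 differed from C3 by −1.56 ± 0.12 (edgeR adjusted p = 7.24e-08). In a bulk library, fewer cells that express a gene and less RNA per cell cannot be told apart.

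MT1G (56666730 to 56668065) followed the same pattern at a lower level. It had 5.75 and 5.80 CPM in C3, 2.81 and 2.52 CPM in C6, and 6.24 and 5.44 CPM in scramble. C6 again lay apart from both other groups, and in C3 the log2 fold change was −0.02 ± 0.18 (edgeR adjusted p = 0.963). MT1G fell by 1.13 on the log2 scale in C6 (SE 0.20, edgeR adjusted p = 0.00023), to 45.6% of scramble, and C6 differed from C3 by −1.12 ± 0.19 (edgeR adjusted p = 0.000217). The C6 calls of MT1E and MT1G were kept whichever library was left out. In the mean of both lines MT1E was called at −0.73 ± 0.10 and MT1G at −0.57 ± 0.16. Without scramble replicate 1 the mean call of MT1G was lost (−0.47, edgeR adjusted p = 0.12), as with DESeq2 (adjusted p = 0.0525).

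MT2A and MT1X did not follow MT1E and MT1G. MT2A (56608584 to 56609497), the most widely expressed human metallothionein, had 142 and 158 CPM in C3, 221 and 211 CPM in C6, and 209 and 182 CPM in scramble. Both C3 libraries lay below all others, and both C6 libraries lay above scramble. MT2A fell by 0.38 on the log2 scale in C3 (SE 0.07, edgeR adjusted p = 0.0017) and stood at 0.14 ± 0.07 in C6, not called (edgeR adjusted p = 0.129). C6 exceeded C3 by 0.53 ± 0.07 (edgeR adjusted p = 4.04e-05). Without scramble replicate 1 MT2A was called in C6 (0.25, edgeR adjusted p = 0.0373).

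MT1X (56682470 to 56684196) had 31.9 and 33.5 CPM in C3, 44.8 and 44.5 CPM in C6, and 38.4 and 36.7 CPM in scramble. The 3 groups did not overlap, with C6 highest and C3 lowest. MT1X rose by 0.25 ± 0.08 (log2) in C6 (edgeR adjusted p = 0.0173), and its value of −0.20 ± 0.08 in C3 was not called, except with upper-quartile scaling. C6 exceeded C3 by 0.45 ± 0.08 (edgeR adjusted p = 0.000243). The rise in C6 lost its call with upper-quartile scaling (0.19, edgeR adjusted p = 0.0661), without C6 replicate 1 (adjusted p = 0.0584) and without scramble replicate 2 (adjusted p = 0.0998), and DESeq2 did not call it (adjusted p = 0.0504).

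The remaining tested metallothioneins were not called in any comparison. MT1A had 5.46 and 4.87 CPM in C3, 4.41 and 6.18 CPM in C6, and 4.20 and 4.43 CPM in scramble. C3 lay above scramble and C6 overlapped both. MT1F was near the floor, with 5 and 0 counts in C3, 17 and 12 counts in C6, and 0 and 5 counts in scramble. C6 lay above both other groups, but C6 missed the threshold against scramble (edgeR adjusted p = 0.082) and, except without C3 replicate 1, against C3 (adjusted p = 0.0632).

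**Figure D2:**
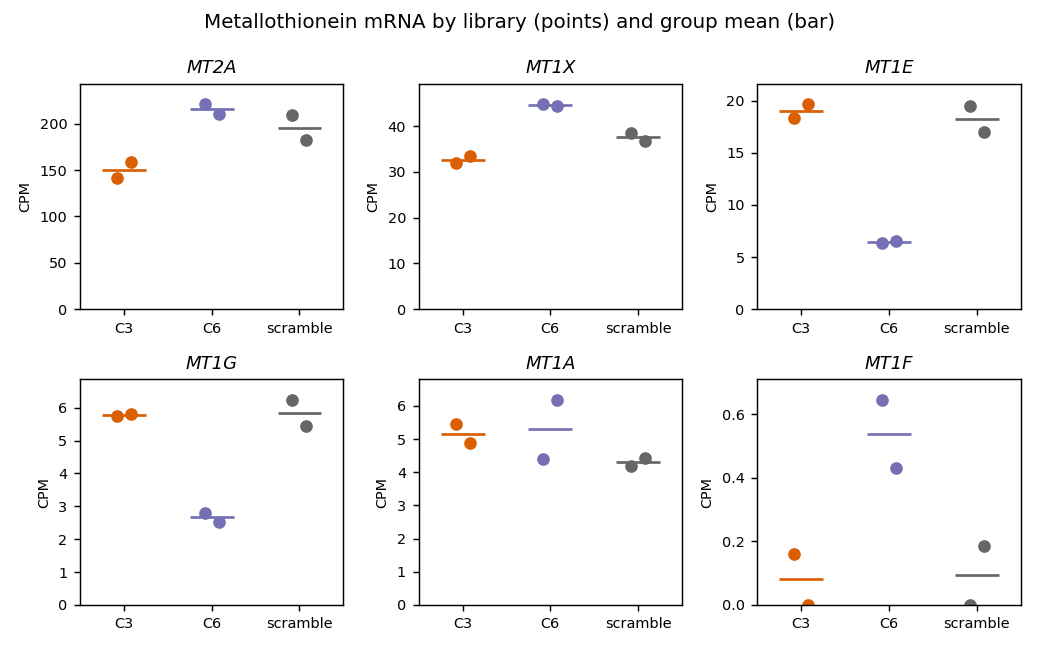
CPM of 6 metallothionein genes (y axis, from 0) in the 2 libraries of C3, C6 and scramble; points are libraries and bars are group means. MT1E and MT1G are lowest in C6, MT2A and MT1X are lowest in C3, and MT1A overlaps between C6 and the other groups.

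Summed over the 9 genes as CPM, which are not divided by length, metallothionein mRNA came to 203 and 222 CPM in C3, 280.2 and 271 CPM in C6, and 278 and 246 CPM in scramble. MT2A made up 69.8% and 71.3% of that sum in C3, 79.0% and 77.8% in C6, and 75.4% and 74.1% in scramble. MT1E made up 8.99% and 8.85% in C3, 2.25% and 2.41% in C6, and 7.04% and 6.91% in scramble. The MT1E share was lowest in both C6 libraries.

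Along the chromosome MT2A, MT1E, MT1A, MT1G and MT1X lie at 0, 17.2, 30.1, 58.15 and 73.9 kb from the lower coordinate of MT2A. The median log2 fold change of 51 neighbouring genes in C6, the metallothioneins themselves included, was between −0.044 and −0.010 around each of them. Metallothionein transcripts resemble each other, so reads could be shared between them. The share of 50-base stretches of the mRNA also found in transcripts of another gene was 4.24% for MT2A, 5.76% for MT1A, 7.10% for MT1E, 16.5% for MT1G and 43.6% for MT1X, the last mostly with an annotated transcript that overlaps it on the same strand. MT1E and MT1G had 39 of these stretches in common with each other. The sources used here do not give how the authors assigned reads from shared stretches, and the part of read sharing in these levels was not tested.

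**Figure D3:**
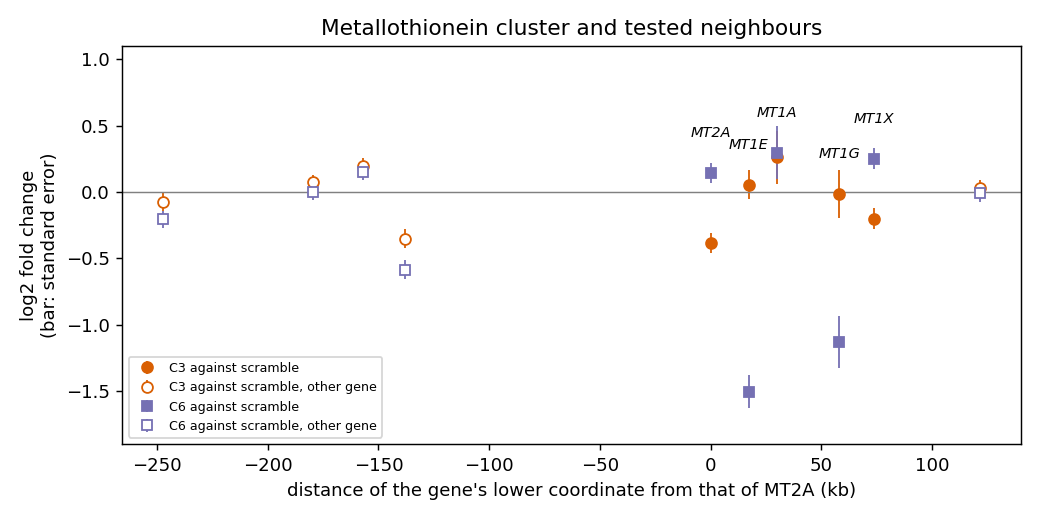
Log2 fold change against scramble (y axis, bars are standard errors) in C3 (circles) and C6 (squares) by distance from MT2A in kb (x axis); filled symbols are metallothioneins and open symbols other tested genes within 250 kb, with MT1F left out because of its low counts. In C6 MT1E (−1.51) and MT1G (−1.13) lie far below MT2A (0.14) and MT1X (0.25) on either side of them.

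SLC30A5 and SLC30A7, exporters of the early secretory pathway, were the ZnT genes called higher in C6 against scramble. SLC30A5, which pairs with SLC30A6 to bring zinc into the Golgi and load alkaline phosphatases (chromosome 5, 69094014 to 69131069), had 63.5 and 62.2 CPM in C3, 106 and 105 CPM in C6, and 77.0 and 76.3 CPM in scramble. The 3 groups lay apart, with C6 highest and C3 lowest. SLC30A5 rose by 0.46 ± 0.06 (log2) in C6 (edgeR adjusted p = 3.07e-05) and fell by 0.29 in C3 (SE 0.07, edgeR adjusted p = 0.00447). The difference of C6 from C3 was 0.75 ± 0.06 (edgeR adjusted p = 1.86e-07). The fall in C3 lost its call without C3 replicate 2 (−0.27, edgeR adjusted p = 0.0568).

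Neighbours of SLC30A5 were shifted as well: the median of 51 neighbouring genes on chromosome 5 was 0.37 in C6 and 0.060 in C3. With that shift removed SLC30A5 stood at 0.094 in C6 and was not called (edgeR adjusted p = 0.268), and its difference of C6 from C3 was 0.44 (edgeR adjusted p = 5.43e-05). An antisense transcript shares 532 exonic bases with SLC30A5. SLC30A7 (chromosome 1, 100896090 to 100996078), which acts as a homodimer in the same compartment, had 37.4 and 37.0 CPM in C3, 55.4 and 52.3 CPM in C6, and 40.8 and 39.9 CPM in scramble. C6 lay above all other libraries. SLC30A7 rose by 0.42 ± 0.08 in C6 (edgeR adjusted p = 0.000377), beside a neighbour median of 0.15, and exceeded C3 by 0.53 ± 0.08. These calls were kept whichever library was left out and with the shift of neighbours removed, where the C6 value was 0.27 (adjusted p = 0.0109). SLC30A6, the partner of SLC30A5, ranged over 32.8 to 32.9 CPM in C3, 28.8 to 30.2 CPM in C6 and 28.8 to 29.1 CPM in scramble and was called in no comparison.

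SLC30A1, the zinc exporter of the plasma membrane (chromosome 1, 211571568 to 211579161), had 68.3 and 69.8 CPM in C3, 69.0 and 66.1 CPM in C6, and 58.5 and 61.4 CPM in scramble. All 4 knockdown libraries lay above both scramble libraries. SLC30A1 rose by 0.20 ± 0.07 (log2) in C3 (edgeR adjusted p = 0.0456) and by 0.19 ± 0.06 in the mean (edgeR adjusted p = 0.0277), while 0.17 ± 0.07 in C6 missed the threshold (edgeR adjusted p = 0.0555). Both calls are marginal. In C3 the call was lost when any library of C3 or scramble was left out, with adjusted p between 0.0839 and 0.214, and in the mean without either C3 library, C6 replicate 1 or either scramble library, with adjusted p between 0.0571 and 0.176. Both calls were also lost with upper-quartile scaling (adjusted p = 0.102 in C3 and 0.0957 in the mean), the replicate block (0.0811 and 0.0507) and DESeq2 (0.0986 and 0.0579). With the shift of neighbours removed the C3 call was lost (adjusted p = 0.109) and the C6 value was called (0.23, adjusted p = 0.0158).

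SLC30A9, a mitochondrial zinc exporter (chromosome 4, 41990530 to 42090461), had 99.2 and 99.4 CPM in C3, 90.4 and 79.95 CPM in C6, and 96.8 and 98.6 CPM in scramble. C6 lay below all other libraries. It fell by 0.20 on the log2 scale in C6 (SE 0.07, edgeR adjusted p = 0.0309), and without C6 replicate 2 that value was −0.11 (adjusted p = 0.268). The call was absent, too, without either scramble library (adjusted p = 0.0879 without replicate 1 and 0.135 without replicate 2) and with the shift of neighbours removed (adjusted p = 0.155).

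SLC30A4, an exporter into endosomes whose loss in mice gives zinc-poor milk, and SLC30A3, which fills synaptic vesicles with zinc, were expressed at low levels. SLC30A4 had 2.23 and 1.71 CPM in C3, 0.949 and 1.11 CPM in C6, and 1.56 and 3.09 CPM in scramble. It fell by 1.17 on the log2 scale in C6 (SE 0.39, edgeR adjusted p = 0.0216), a value that was −0.59 and not called without scramble replicate 2 (adjusted p = 0.338). The call was also lost without C6 replicate 1 (adjusted p = 0.105) or C6 replicate 2 (adjusted p = 0.059). SLC30A3 had 2.03 and 2.42 CPM in C3, 0.608 and 1.33 CPM in C6, and 1.15 and 1.64 CPM in scramble. It was called only between the lines, C6 below C3 by 1.19 (SE 0.41, edgeR adjusted p = 0.024), and not without C3 replicate 2 (adjusted p = 0.108) or C6 replicate 1 (−0.74, adjusted p = 0.174), while without C6 replicate 2 the difference was −1.86.

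**Figure D4:**
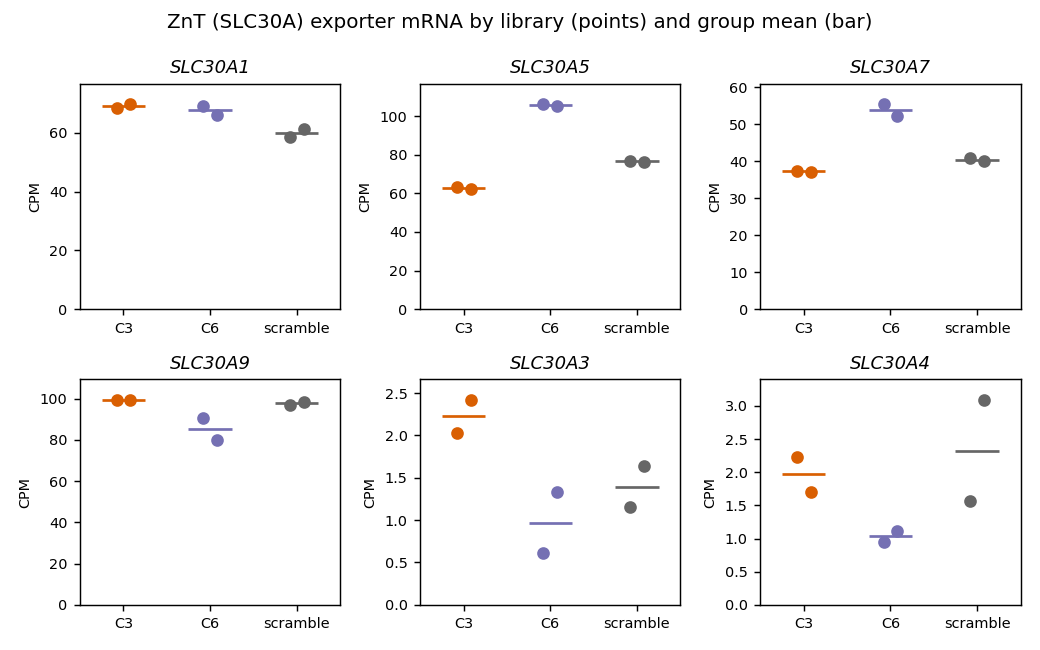
CPM of 6 SLC30A genes (y axis, from 0) in the libraries of C3, C6 and scramble; points are libraries and bars are group means. SLC30A5 and SLC30A7 are highest in C6, SLC30A1 is above scramble in all 4 knockdown libraries, and SLC30A3 and SLC30A4 vary between libraries of a group.

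In the ZIP family SLC39A4 rose and SLC39A5 and SLC39A11 fell in both lines. SLC39A4 (chromosome 8, 144412414 to 144416844) had 6.10 and 6.44 CPM in C3, 8.85 and 8.48 CPM in C6, and 4.98 and 3.28 CPM in scramble. All 4 knockdown libraries lay above both scramble libraries, C6 highest. It rose by 0.60 ± 0.19 (log2) in C3 (edgeR adjusted p = 0.0339) and by 1.07 ± 0.19 in C6 (edgeR adjusted p = 0.000317), to 209.8% of scramble. The C6 call was kept whichever library was left out, with log2 values between 0.80 and 1.40.

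The C3 call of SLC39A4 rested on single libraries. Without scramble replicate 2, the lower of the scramble libraries, its log2 fold change in C3 was 0.33 (edgeR adjusted p = 0.299), and in the mean, where it was called at 0.84 ± 0.17, it was 0.57 (adjusted p = 0.0503). The C3 call was also lost without C3 replicate 1 (adjusted p = 0.0759), C3 replicate 2 (0.132), C6 replicate 1 (0.0506) or C6 replicate 2 (0.0507), and with DESeq2 (0.0938). Without scramble replicate 1 the C3 value was 0.94. C6 exceeded C3 by 0.47 ± 0.18 (edgeR adjusted p = 0.045), a call lost when any library of C3 or C6 was left out, with adjusted p between 0.0969 and 0.161, and with upper-quartile scaling (0.0572), the shift of neighbours removed (0.108) or DESeq2 (0.124).

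SLC39A5, a zinc importer placed at the basolateral membrane of the intestine in mice (chromosome 12, 56230051 to 56237846), had 0.839 and 0.605 CPM in C3, 0.684 and 1.01 CPM in C6, and 1.89 and 2.01 CPM in scramble. These are 26 and 17 counts in C3, 18 and 28 in C6, and 51 and 54 in scramble, with both lines below scramble. SLC39A5 fell by 1.42 on the log2 scale in C3 (SE 0.41, edgeR adjusted p = 0.0199) and fell by 1.20 in C6 (SE 0.41, edgeR adjusted p = 0.0256). Its exons overlap ANKRD52 on the opposite strand by 40 bases. The call ended without scramble replicate 1 (adjusted p = 0.09 in C3 and 0.0918 in C6), without scramble replicate 2 (0.12 and 0.122), without C3 replicate 2 in C3 (0.139) and without C6 replicate 1 in C6 (0.144), where DESeq2 did not call it either (0.0649). In the mean, at −1.31 ± 0.34, it was lost without scramble replicate 1 (0.0633) or scramble replicate 2 (0.092).

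SLC39A11, placed in the nucleus and Golgi in mice (chromosome 17, 72645949 to 73092688), had 11.2 and 9.14 CPM in C3, 13.2 and 11.1 CPM in C6, and 15.5 and 16.6 CPM in scramble. Both lines lay below scramble and overlapped each other. It fell by 0.66 on the log2 scale in C3 (SE 0.13, edgeR adjusted p = 0.00196) and by 0.41 in C6 (SE 0.13, edgeR adjusted p = 0.0197). The C3 call and that of the mean (−0.53 ± 0.11) were kept whichever library was left out. The C6 call was lost without C6 replicate 2 (−0.28, adjusted p = 0.173), scramble replicate 1 (adjusted p = 0.0502) or scramble replicate 2 (adjusted p = 0.126), and with DESeq2 (adjusted p = 0.0608).

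SLC39A13, a ZIP of intracellular vesicles and the Golgi that is mutated in a form of Ehlers-Danlos syndrome (chromosome 11, 47407276 to 47416500), moved in opposite directions. It had 15.6 and 19.4 CPM in C3, 31.9 and 31.1 CPM in C6, and 22.4 and 22.5 CPM in scramble. The 3 groups lay apart. SLC39A13 rose by 0.49 ± 0.11 (log2) in C6 (edgeR adjusted p = 0.00146) and fell by 0.36 in C3 (SE 0.11, edgeR adjusted p = 0.0249), and C6 exceeded C3 by 0.85 ± 0.11 (edgeR adjusted p = 1e-05). The neighbour median was 0.031 in C3 and −0.010 in C6. The C3 call was lost without C3 replicate 1 (−0.21, adjusted p = 0.308), scramble replicate 1 (adjusted p = 0.101) or scramble replicate 2 (adjusted p = 0.115), and with DESeq2 (adjusted p = 0.0527).

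SLC39A8, which carries zinc and manganese (chromosome 4, 102251041 to 102345482), had 6.49 and 5.94 CPM in C3, 2.96 and 2.41 CPM in C6, and 4.90 and 5.32 CPM in scramble. C6 lay below all other libraries, and C3 lay above scramble. SLC39A8 fell by 0.93 on the log2 scale in C6 (SE 0.20, edgeR adjusted p = 0.00148) and was not called in C3 (0.28 ± 0.19, edgeR adjusted p = 0.305). C6 differed from C3 by −1.21 ± 0.20 (edgeR adjusted p = 0.000121), and both calls were kept whichever library was left out.

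SLC39A14, a transporter of zinc, iron and manganese (chromosome 8, 22367278 to 22434129), was the most abundant transporter per kilobase of exon in each group. It had 479.8 and 466 CPM in C3, 420.3 and 427 CPM in C6, and 396 and 414 CPM in scramble. C3 lay above C6 and C6 above scramble. SLC39A14 rose by 0.22 ± 0.06 (log2) in C3 (edgeR adjusted p = 0.00839) and was not called in C6 (0.07 ± 0.06, edgeR adjusted p = 0.367). The C3 call was lost without C3 replicate 1 (adjusted p = 0.0987) or scramble replicate 1 (adjusted p = 0.0749).

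In C6 the median of the 51 genes around SLC39A14 was 0.45, against −0.043 in C3. With that shift removed the C6 value of SLC39A14 turned to −0.39 (edgeR adjusted p = 6.73e-05). In the mean SLC39A14 was called at 0.14 ± 0.05 (edgeR adjusted p = 0.0336), a call lost without either C3 library, C6 replicate 2 or either scramble library (adjusted p between 0.0576 and 0.208) and with upper-quartile scaling (adjusted p = 0.156).

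SLC39A10, a plasma membrane importer (chromosome 2, 195613029 to 195737700), had 22.6 and 21.6 CPM in C3, 18.2 and 17.4 CPM in C6, and 22.5 and 23.9 CPM in scramble. C6 lay below both other groups. It fell by 0.38 on the log2 scale in C6 (SE 0.10, edgeR adjusted p = 0.00493), beside a neighbour median of −0.54, and with that shift removed it stood at 0.16 and was not called (adjusted p = 0.228). SLC39A6, its close relative and partner, had 32.3 and 31.7 CPM in C3, 31.9 and 37.1 CPM in C6, and 39.7 and 36.6 CPM in scramble. SLC39A6 was called in no comparison (edgeR adjusted p = 0.0563 in C3 and 0.215 in C6), but was called lower in C3 with upper-quartile scaling (0.0312), with a filter at 1 CPM (0.0469) and without C6 replicate 1 (0.04) or C6 replicate 2 (0.0429). In the mean it was called with upper-quartile scaling (0.025) and without C6 replicate 2 (0.0267).

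SLC39A1, an importer of the plasma membrane (chromosome 1, 153959110 to 153968184), had 152 and 154 CPM in C3, 133 and 131 CPM in C6, and 161 and 149 CPM in scramble. C6 lay below all other libraries. It fell by 0.23 on the log2 scale in C6 (SE 0.06, edgeR adjusted p = 0.0074) while its neighbours had a median of 0.21, and with their shift removed it stood at −0.44 (adjusted p = 5.25e-05). The call was lost without scramble replicate 1 (−0.17, adjusted p = 0.0879). Of its 50-base stretches 55.9% also occur in an overlapping transcript on the same strand, and CREB3L4 overlaps it by 101 exonic bases on the opposite strand; the part of these overlaps was not tested.

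SLC39A7, which releases zinc from the endoplasmic reticulum, and SLC39A9, of the Golgi, were called only between the lines. SLC39A7 ranged over 117.0 to 118 CPM in C3, 125 to 139 CPM in C6 and 120.2 to 122 CPM in scramble, and SLC39A9 over 71.1 to 71.4, 61.7 to 64.3 and 67.1 to 67.4 CPM in the same groups. C6 lay above C3 by 0.17 for SLC39A7 (edgeR adjusted p = 0.0463) and below it by 0.18 for SLC39A9 (edgeR adjusted p = 0.0405). Both calls were lost with the shift of neighbours removed, with the replicate block, with DESeq2 and when either C3 library or C6 replicate 2 was left out, that of SLC39A9 also without C6 replicate 1 and that of SLC39A7 also without either scramble library and with upper-quartile scaling. For SLC39A7 the adjusted p without a library reached 0.338 and for SLC39A9 0.161. SLC39A3, an importer of the plasma membrane, was called in no comparison and ranged over 21.7 to 22.0, 21.9 to 23.9 and 21.9 to 23.6 CPM in C3, C6 and scramble.

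**Figure D5:**
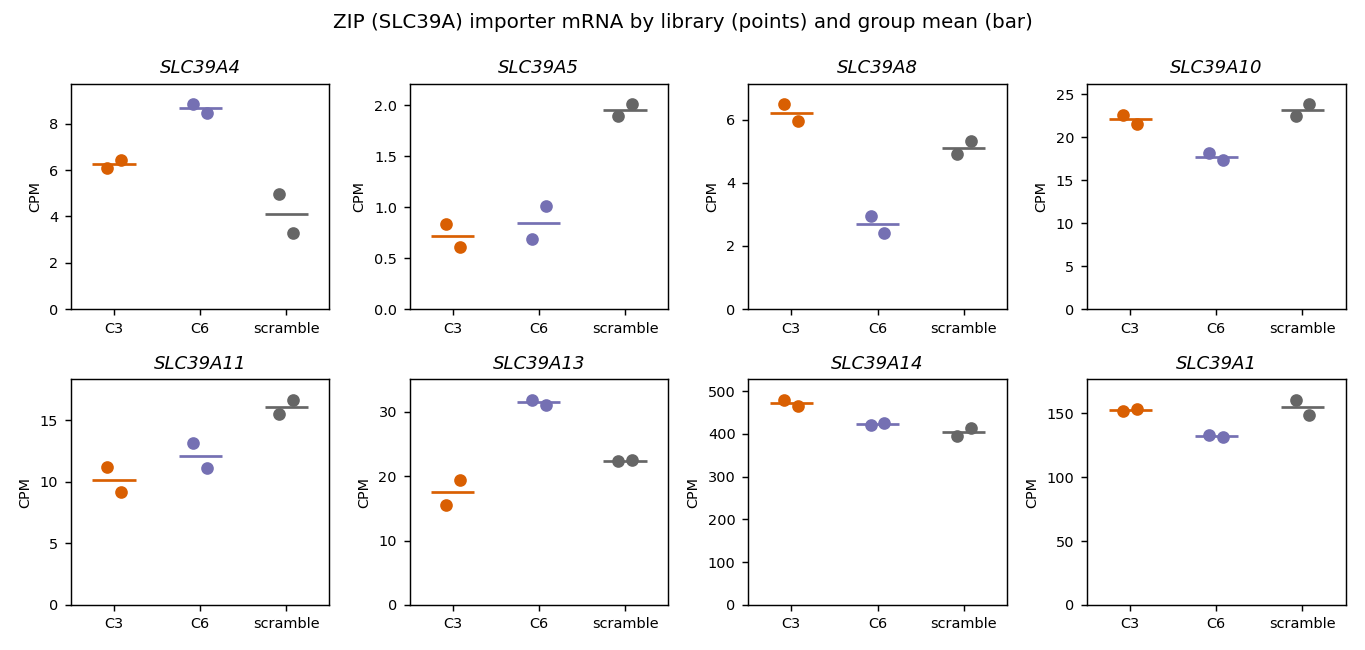
CPM of 8 SLC39A genes (y axis, from 0) in the libraries of C3, C6 and scramble; points are libraries and bars are group means. SLC39A4 is above and SLC39A5 and SLC39A11 are below scramble in all 4 knockdown libraries, SLC39A13 is lowest in C3 and highest in C6, and SLC39A8, SLC39A10 and SLC39A1 are lowest in C6.

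Summed by family, ZnT mRNA came to 305.6 and 305.5 CPM in C3, 352 and 336 CPM in C6, and 304.7 and 310.2 CPM in scramble. ZIP mRNA came to 937 and 925 CPM in C3, 871 and 892 CPM in C6, and 881 and 882 CPM in scramble. C6 lay above both other groups for ZnT genes. The largest ZnT member was SLC30A5 in C6 (30.2% and 31.3% of the sum) and SLC30A9 in C3 and scramble (31.8% to 32.5%). SLC30A5 averaged 106 CPM in C6 and 76.6 CPM in scramble, beside its neighbour median of 0.37 in C6. Of the 7 tested ZnT genes 2 were called higher and 2 lower in C6, beside 23.8% and 22.8% of all genes. C3 lay above both other groups for ZIP genes, where SLC39A14 made up 50.4% to 51.2% of the sum in C3, 47.8% to 48.2% in C6 and 45.0% to 46.9% in scramble.

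Other genes of metal handling were read from fixed lists, and the genes named are the 3 of each list with the lowest p in the mean of both lines, not typical members. All genes tested were called higher and lower in 12.4% and 11.9% in C3, 23.8% and 22.8% in C6, and 16.6% and 16.3% in the mean, and the counts below are to be read against these shares. Of 18 tested genes of other zinc handling 0 rose and 4 fell in C3, 3 rose and 2 fell in C6, and 0 rose and 3 fell in the mean (edgeR, median log2 −0.00052 in the mean). ALPP, a zinc-dependent alkaline phosphatase of the kind loaded by SLC30A5, SLC30A6 and SLC30A7, had 2.16 and 2.31 CPM in C3, 2.01 and 1.83 CPM in C6, and 6.46 and 5.62 CPM in scramble. It fell by 1.43 on the log2 scale in C3 and fell by 1.65 in C6 (edgeR adjusted p = 0.000261 and 3.36e-05), beside a neighbour median of −0.31 in C6, and it has near-identical copies whose reads could be shared. TMC6, whose protein binds SLC30A1, averaged 16.5 ± 0.822 CPM in C3, 65.5 ± 0.45 CPM in C6 and 37.7 ± 1.94 CPM in scramble (SD, n = 2 each). Its log2 fold change was −1.19 ± 0.09 in C3 and 0.80 ± 0.08 in C6, both called. TRPM7, a channel permeable to zinc and magnesium, fell by 0.30 in C6 (SE 0.07, edgeR adjusted p = 0.00199).

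Of 16 tested copper genes 1 rose and 0 fell in C3, 3 rose and 5 fell in C6, and 4 rose and 0 fell in the mean (edgeR, median log2 0.038). Of 21 tested iron genes 2 rose and 3 fell in C3, 6 rose and 5 fell in C6, and 4 rose and 5 fell in the mean (median log2 0.0096). Both lists were called in C6 at shares near the 46.7% of all genes. Superoxide dismutase SOD1, which holds copper and zinc, averaged 148 ± 1.49 CPM in C3, 101 ± 1.28 CPM in C6 and 94.8 ± 6.55 CPM in scramble, and it rose in C3 by 0.64 ± 0.07 (edgeR adjusted p = 4.94e-06). STEAP2, a metalloreductase, averaged 40.1 ± 2.32 CPM in C3, 142 ± 10.3 CPM in C6 and 37.0 ± 4.01 CPM in scramble and rose in C6 by 1.94 ± 0.09 (edgeR adjusted p = 3.49e-10), beside a neighbour median of 0.31. COX19, a factor of cytochrome oxidase assembly, rose in C6 by 0.69 ± 0.08 beside a neighbour median of 0.49.

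Among the iron genes ferroportin SLC40A1, the cell's iron exporter, averaged 14.9 ± 0.535 CPM in C3, 3.21 ± 0.83 CPM in C6 and 19.9 ± 1.24 CPM in scramble. It fell by 2.63 on the log2 scale in C6 (SE 0.16, edgeR adjusted p = 5.1e-09), beside a neighbour median of −0.56. In C3 SLC40A1 was called lower as well, at −0.42 ± 0.13 (edgeR adjusted p = 0.028). The transferrin receptor TFRC averaged 821 ± 8.97 CPM in C3, 402 ± 0.271 CPM in C6 and 815 ± 20.1 CPM in scramble and fell by 1.02 in C6 (SE 0.06, edgeR adjusted p = 2.46e-09), beside a neighbour median of −0.51. Ferritin light chain FTL rose by 0.59 ± 0.06 in C3 and 0.21 ± 0.06 in C6.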

How the data were processed

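The authors deposited whole-number read counts per gene, with no scaling between libraries (per the file headers, and from the values). HISAT2 2.1.0, StringTie 2.1.3b, Trimmomatic 0.38, DESeq2 and the build hg38 are named in the submitters' processing notes; the sources used here do not give how reads were assigned to genes. The kit was a stranded mRNA kit, per the labels' protocols. Libraries were grouped by title. Counts were scaled by TMM, filtered with filterByExpr and fitted as 3 groups (3 residual degrees of freedom) with edgeR 4.0.16's robust quasi-likelihood test in R 4.3.3, with Benjamini-Hochberg adjustment over 13299 genes. Means carry the SD of 2 libraries, and fold changes the SE of the fit. Libraries of the same group were not copies: their chi-square per degree of freedom was 6.08 to 8.3.

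RefSeq (GRCh38.p14) gave positions for 19450 of 19672 listed genes. The running median covered 51 neighbouring tested genes, the gene itself included, and fewer at chromosome ends. It was removed as an offset per line. Alternatives were other scalings, filters, DESeq2 1.42.0, a replicate block, single libraries left out and the knockdown libraries as 1 group. The fit was tried on simulated counts with 200 changed genes that moved alike in both lines, at 1 fixed spread. That trial does not measure error rates in these data. Every gene of the families could be named; of each other list, the 3 genes of lowest p in the mean of both lines. The genes and lists were chosen with earlier results of these data known.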

Additional observations from a re-analysis of the deposited data

Results flagged for a closer look

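For 16 of the 26 tested genes the effect of the knockdown line against scramble differed between C6 and C3 by edgeR's direct test (adjusted p under 0.05, beside 49.2% of all genes). The difference, C6 minus C3 on the log2 scale, was −1.56 for MT1E, −1.21 for SLC39A8, −1.19 for SLC30A3, −1.12 for MT1G, −0.32 for SLC39A10, −0.22 for SLC30A9, −0.21 for SLC39A1, −0.18 for SLC39A9 and −0.16 for SLC39A14. It was 0.85 for SLC39A13, 0.75 for SLC30A5, 0.53 for SLC30A7, 0.53 for MT2A, 0.47 for SLC39A4, 0.45 for MT1X and 0.17 for SLC39A7. Those of MT1E, MT1G, MT1X, MT2A, SLC30A5, SLC30A7, SLC39A8 and SLC39A13 were kept whichever library was left out. With the shift of neighbours removed the difference was 0.44 for SLC30A5, −0.48 for SLC39A1 and −0.66 for SLC39A14. That setting ended the calls of SLC30A9 (−0.16, edgeR adjusted p = 0.0846), SLC39A4 (0.37, 0.108), SLC39A7 (0.00072, 0.995) and SLC39A9 (−0.10, 0.236). There SLC39A10 turned to 0.13 (adjusted p = 0.32). Apart from the 8 genes kept whichever library was left out, the other 8 lost their call without at least 1 library. SLC30A9 (highest adjusted p = 0.166) and SLC39A1 (0.082) lost it without either C3 library or C6 replicate 2, SLC39A10 (0.101) without C3 replicate 1 or C6 replicate 2, and SLC39A14 (0.197) without any library of C3 or C6. SLC30A3, SLC39A4, SLC39A7 and SLC39A9 lost it at an adjusted p of up to 0.174, 0.161, 0.338 and 0.161, in edgeR as above. Groups of 2 libraries were not tested for outlying samples.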

How the results depend on the processing

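Of 45 calls over the 4 comparisons, 20 were kept whichever library was left out and 16 under every setting run. DESeq2 called 5 genes in C3. With the knockdown libraries as 1 group edgeR called 80 genes in all and 0 of these 26 genes in the mean; 4 of them had an unadjusted p under 0.05, and DESeq2 with 3 groups called 5. With single libraries left out, where the lone library of a group is assumed to vary like the others, 4 to 8 of the genes were called in C3, 9 to 14 in C6, 3 to 7 in the mean and 9 to 16 in C6 against C3. Over all genes these ranges were 1946 to 3267, 4584 to 6006, 2444 to 4041 and 5155 to 6423. With the shift of neighbours removed, SLC39A10 turned to 0.16 in C6, 0.093 in the mean and 0.13 in C6 against C3 (adjusted p = 0.228, 0.451 and 0.32), and SLC39A14 to −0.39 in C6 and −0.060 in the mean (adjusted p = 6.73e-05 and 0.396). Without scramble replicate 1 MT2A in C6 stood at 0.25 (adjusted p = 0.0373). Over genes, deviations of same-numbered libraries correlated at −0.0465 (C3 and scramble), 0.0644 (C6 and scramble) and 0.0252 (C6 and C3). These values cannot show whether such libraries were handled together. With the replicate block 7 genes were called in C3, 14 in C6, 5 in the mean and 13 in C6 against C3. Of the 45 calls, 45 were kept with RLE scaling, 39 with upper-quartile scaling, 39 with the replicate block, 35 with the shift of neighbours removed and 33 with DESeq2, and the cause of a lost call was not tested. Low counts limit MT1F, SLC30A3, SLC30A4 and SLC39A5.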
